A study of Rattus norvegicus with 24 samples.

Results

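The tRNA features named for phenylalanine, tyrosine, tryptophan and histidine were described in small RNA libraries from injured and uninjured rat brain. A tRNA feature is 1 annotated tRNA gene copy, named by a number, an amino acid and an anticodon, and its reads are short fragments that mapped to that copy. Members were all features whose name gives Phe, Tyr, Trp or His. This rule uses names alone, but it was set with earlier results of these data known. Of 1172 features in the cortical count table, 444 were tRNA features and 36 of these were members, namely 12 His-GTG, 8 Tyr-GTA, 8 Trp-CCA, 7 Phe-GAA and 1 Phe-AAA. The CPM tables (reads of a feature scaled to 1000000 reads of the table) held 27 members among 606 features in cortex and 30 among 641 in thalamus, and 27 members were in both. All features of the CPM tables reached 10 CPM in at least 2 libraries, and 6 of the 27 cortical and 4 of the 30 thalamic members reached it in at least 2 TBI libraries but in fewer than 2 sham libraries. Groups were TBI cortex, sham cortex, TBI thalamus and sham thalamus with 6 libraries each, from 12 adult male Sprague-Dawley rats that gave both the perilesional cortex and the ipsilateral thalamus at 3 months after surgery. TBI was made by lateral fluid percussion, where pressurised fluid hits the dura through an opening in the skull, and the sham group underwent surgery only. The tissue of a region was divided into pieces whose RNA was pooled per rat. The study chose its TBI rats for chronic inflammation on imaging, so they stand for such rats and not for injury in general.

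Transfer RNAs carry amino acids to the ribosome, and under stress the RNases angiogenin and Dicer can cut them into fragments that small RNA sequencing picks up. A mammalian genome holds many near-identical copies of each tRNA, and a short read can match several of them. The aromatic amino acids phenylalanine, tyrosine and tryptophan are decoded by tRNA-Phe-GAA, tRNA-Tyr-GTA and tRNA-Trp-CCA, and histidine by tRNA-His-GTG. tRNA-His carries an extra guanine at its 5′ end, tRNA-Tyr precursors hold an intron that is spliced out, tRNA-Phe has the bulky base wybutosine beside its anticodon, and tRNA-His and tRNA-Tyr can carry queuosine in the anticodon. Such modified bases can also stop the reverse transcription used to make libraries. The tables do not say where in a tRNA a fragment lies, and how reads were divided among copies is not stated, so the value of a single copy is uncertain where copies share reads. The copies of each anticodon were therefore also summed.

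The libraries held 847300 to 4501868 reads of the table in cortex and 615608 to 4530850 in thalamus. The miRNAs of neurons were abundant in every library, with a sum of 3 markers between 126700 and 393800 CPM. Muscle miRNAs (4 of 4 measured) summed to 105.6 to 756.8 CPM, and red cell miRNAs (3 of 4 measured) to at most 84.95 CPM. The sham thalamus library of rat 55, one of the shallowest at 626552 reads, was far above the other shams for His-GTG and for tRNA2056-TyrGTA, and results that rest on it are given with and without it. The TBI and sham libraries of a region came from separate rats.

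His-GTG and Tyr-GTA made up nearly all member reads. Of these reads, His-GTG took 66.45% in cortex and 62.91% in thalamus, Tyr-GTA 30.79% and 34.68%, Trp-CCA 1.839% and 1.654%, and Phe-GAA 0.922% and 0.7595%. These cortical values sum 7 Phe-GAA and 8 Trp-CCA copies and the thalamic ones 4 and 6, so they are not compared between regions. Over the copies in both tables, 2 Phe-GAA and 5 Trp-CCA, Phe-GAA took 0.3892% in cortex and 0.4368% in thalamus, and Trp-CCA 1.553% and 1.523%. All members together were 3.07% ± 0.574 of tRNA reads in sham cortex, 2.99% ± 0.542 in TBI cortex, 4.57% ± 1.57 in sham thalamus and 5.06% ± 1.04 in TBI thalamus (SD, n = 6). Counting precision followed the read numbers. A cortical library held 1772 to 10151 reads of His-GTG but 19 to 149 reads of Phe-GAA, and 1 read was worth 0.2221 to 1.18 CPM in cortex and 0.2207 to 1.624 CPM in thalamus. The Phe-AAA copy had 0 reads in all 12 cortical libraries, which in the shallowest allows up to 3.541 CPM (3 reads). Such limits cover counting error only.

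The copies of an anticodon behaved in 2 ways. The 12 His-GTG copies had nearly equal reads, with a ratio of the highest to the lowest copy of 1.17 in cortex and 1.16 in thalamus. They fell into the same 2 levels in both regions. tRNA3342, tRNA3352, tRNA3353, tRNA4122 and tRNA4128 each took 8.884% to 9.066% of His-GTG reads in cortex and 8.9% to 9.051% in thalamus, and the other 7 took 7.778% to 8.001% and 7.779% to 8.048%. Against fixed shares in every library, the chi-square per degree of freedom of the copies was 1.16 in cortex and 0.943 in thalamus, where 1 is the value of reads drawn with fixed shares. At this depth the His-GTG shares did not differ detectably between libraries. Whether the copies share reads or keep fixed ratios was not tested. These statistics used copies averaging at least 5 reads a library.

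**Figure D1:**
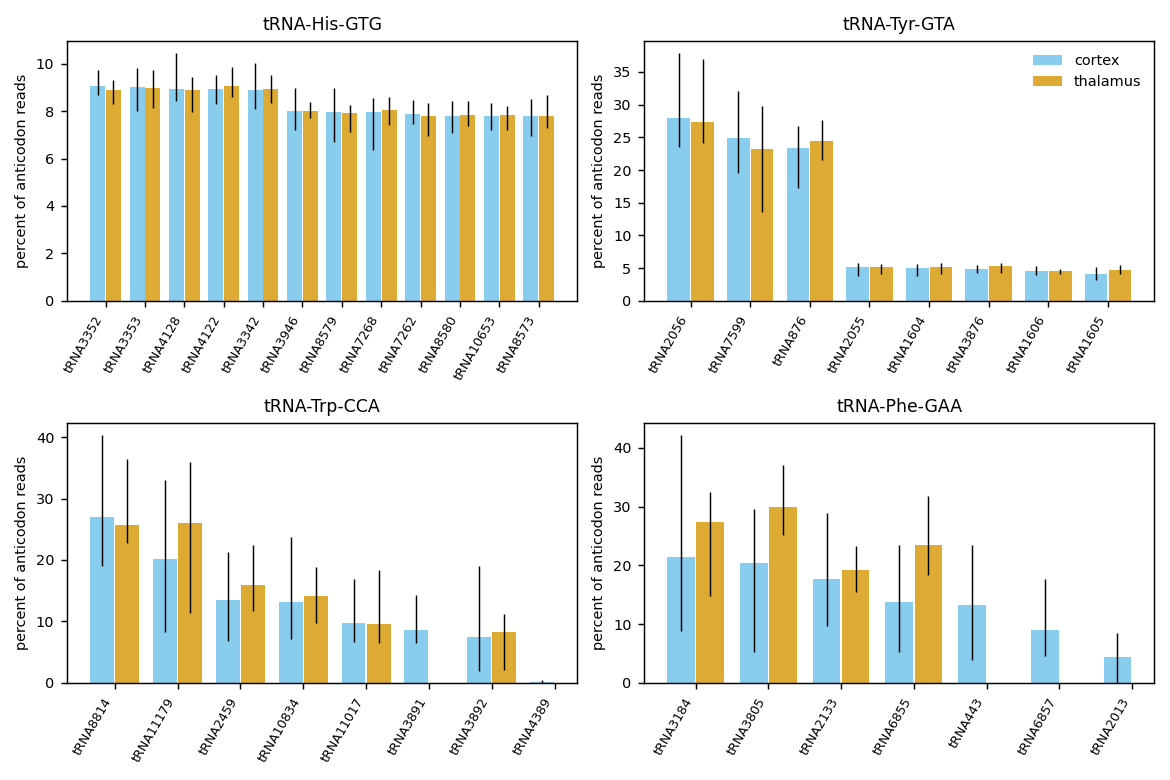
Share of each copy in the reads of its anticodon (y axis, percent) over all libraries of a region, with cortex in blue and thalamus in yellow. Vertical lines run from the lowest to the highest of 12 libraries, and copies without a yellow bar were not in the thalamus table. His-GTG copies lie close to each other and 3 Tyr-GTA copies stand above the other 5.

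The 8 Tyr-GTA copies were unequal. tRNA2056, tRNA7599 and tRNA876 each took between 23.15% and 28.02% of Tyr-GTA reads, together 76.34% in cortex and 75.01% in thalamus, while tRNA1604, tRNA1605, tRNA1606, tRNA2055 and tRNA3876 each took 4.129% to 5.332%. Here the chi-square per degree of freedom was 5.66 in cortex and 8.48 in thalamus, so the shares differed between libraries beyond counting error. For tRNA7599 alone it was 22.7 in cortex and 44.1 in thalamus, the highest of the copies, though this statistic grows with read number. Its share ran from 19.5% to 32.08% among cortical libraries and from 13.64% to 29.87% among thalamus libraries, and that of tRNA2056 from 23.48% to 37.89% and from 24.15% to 36.98%. For Trp-CCA the value was 1.95 and 2.13, with tRNA11179 highest at 6.07 and 6.8, and for Phe-GAA it was 1.42 and 0.854.

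The first comparison asked whether the fragments differed between TBI and sham in the perilesional cortex. Counts were tested with edgeR over 645 features, of which 31 were members. At an adjusted p of 0.05, 2 of the 31 members passed and both were higher in TBI, against 4.5% of all features tested, or 2.95% counted as higher. They were tRNA3805-PheGAA and tRNA11179-TrpCCA. The filter on low counts kept features near 4.76 CPM or more in at least 6 libraries, and 8 of the 31 members, both of these among them, reached it in 6 TBI libraries but in fewer than 6 sham libraries. Without the filter, both copies passed, with adjusted p of 0.00659 and 0.0211 in edgeR. The median log2 fold change of the 31 members was -0.09, against -0.00 over all features and 0.12 over the other 243 tRNA features, of which 11 passed as higher and 0 as lower. At an unadjusted p of 0.05, 5 members passed, 3 Phe-GAA and 2 Trp-CCA copies, where 18.9% of all features did. Among the 4 anticodon sums 1 passed, Phe-GAA, against 6% of the 417 rows of the summed table, or 3.84% as higher.

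**Figure D2:**
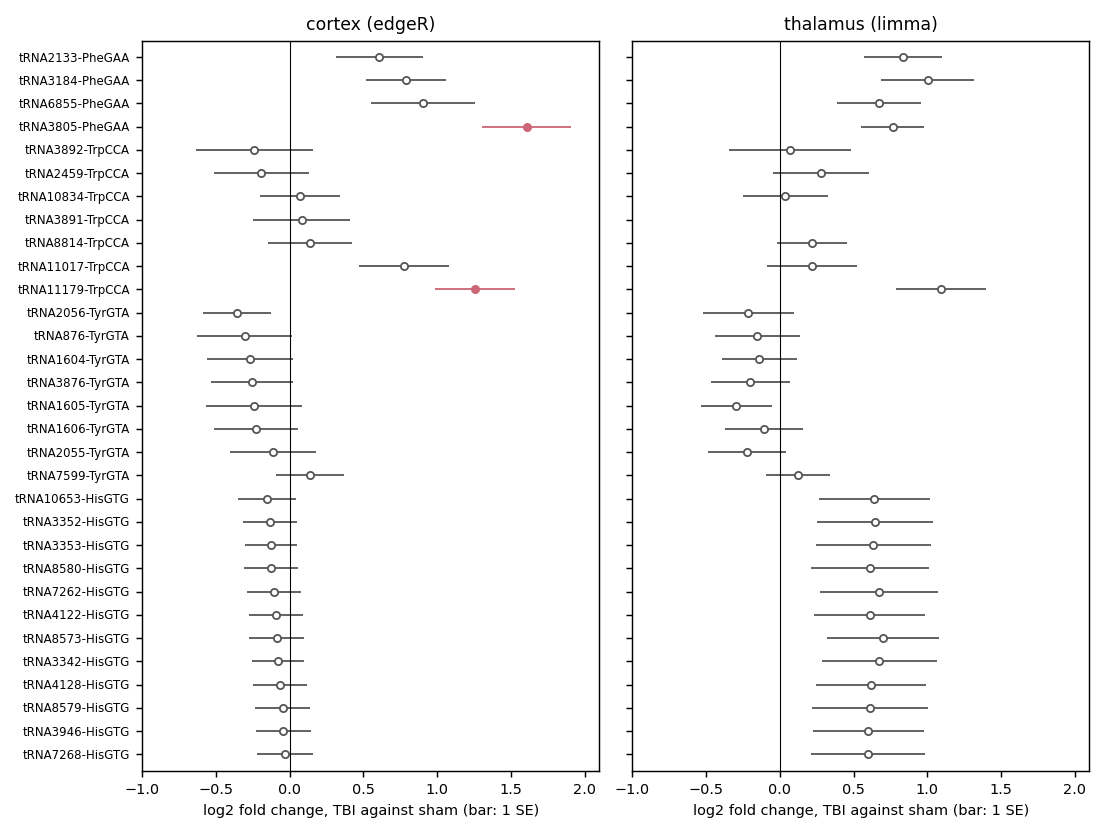
Log2 fold change of TBI against sham (x axis; bars, 1 SE) for each member tested in cortex with edgeR (left) and in thalamus with limma (right), 6 TBI and 6 sham libraries each. Filled points passed an adjusted p of 0.05, as 2 copies did in cortex and 0 in thalamus, and a missing point is a copy that was not in the thalamus table.

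Phe-GAA fragments were higher in TBI cortex. The Phe-GAA sum over its 7 copies was 19.4, 18.2, 22.8, 16.0, 22.3 and 34.5 CPM in sham rats 26, 32, 34, 38, 50 and 55. In TBI rats 22, 24, 45, 52, 56 and 63 it was 48.7, 55.5, 38.5, 49.3, 50.7 and 38.04 CPM. Every TBI rat lay above every sham rat, as in 3.12% of the rows of the summed table, and sham rat 55 was the nearest to the TBI rats. The groups also did not overlap after TMM scaling, at 18.01 to 32.27 CPM in sham and 34.31 to 52.87 CPM in TBI. The log2 fold change was 0.93 (SE 0.18), 1.91 times the sham level, with an adjusted p of 0.00601 in edgeR. It passed in each of the 12 fits that left out 1 rat, with log2 fold changes of 0.81 to 0.99 and adjusted p of 0.00764 to 0.0466 in edgeR.

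**Figure D3:**
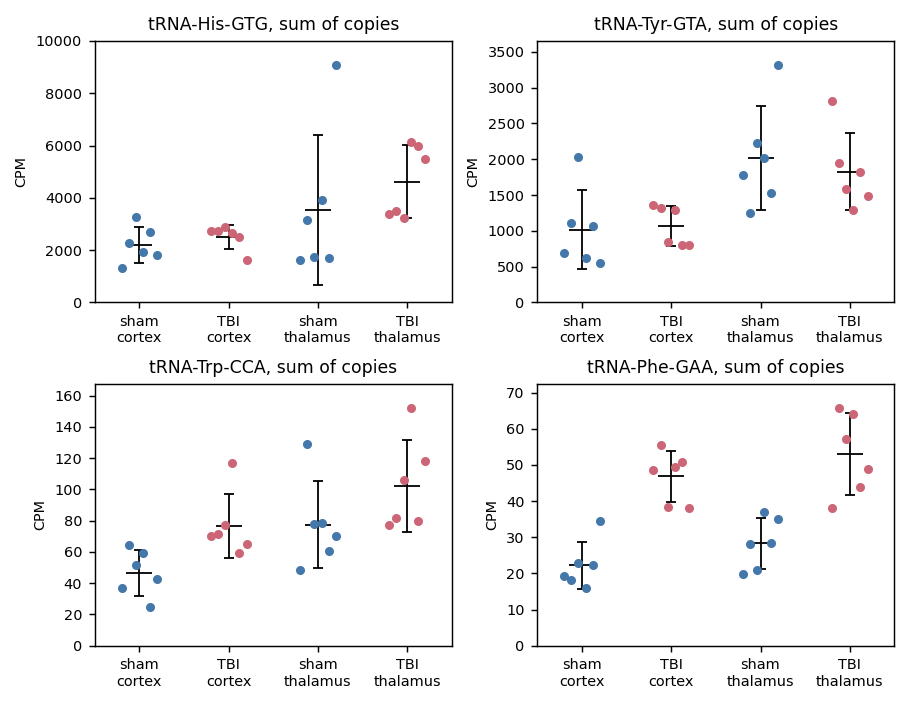
Summed CPM of each anticodon (y axis, linear from 0) in every library, with sham in blue and TBI in red. Each point is 1 rat, and the black bars are the mean and SD of 6 rats. For Phe-GAA every TBI point is above every sham point of the same region, while the groups overlap for His-GTG, Tyr-GTA and Trp-CCA, and 1 sham thalamus rat stands at 9096 CPM of His-GTG.

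tRNA3805-PheGAA was the Phe-GAA copy that passed by itself. It had 3.06, 1.55, 4.02, 2.77, 1.17 and 5.07 CPM in the cortex of sham rats 26, 32, 34, 38, 50 and 55, from 1 to 9 reads a library. In TBI rats 22, 24, 45, 52, 56 and 63 it had 14.4, 13.4, 6.63, 11.1, 11.8 and 6.58 CPM, from 9 to 44 reads. All 6 TBI rats lay above all 6 shams, as for 2 of the 35 members with a read, this copy and tRNA11179-TrpCCA, and for 3% of all 932 cortical features with a read. Rats 45 and 63 were the lowest of the TBI group. On the log2 scale edgeR put the difference at 1.61 (SE 0.30) with an adjusted p of 0.0077, and it passed in 12 of 12 fits without 1 rat (adjusted p between 0.00527 and 0.0269 in edgeR). Its share of Phe-GAA reads was 22.3% ± 4.63 in TBI cortex and 13.2% ± 5.11 in sham cortex (SD, n = 6).

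The other Phe-GAA copies also had more reads in TBI cortex, without passing singly. Like tRNA3805, the copies tRNA3184, tRNA6855 and tRNA2133 reached the filter level in 6 TBI libraries but in fewer than 6 sham libraries. That they were tested already favoured a higher TBI value, so their shared direction is not separate support. For tRNA3184-PheGAA the mean was 9.98 ± 1.86 CPM after TBI and 4.87 ± 2.35 CPM after sham surgery (SD, n = 6), which edgeR fitted as 0.79 on the log2 scale (SE 0.27) with an adjusted p of 0.128. Sham rat 50, at 9.39 CPM, lay among the TBI rats. For tRNA6855-PheGAA the means were 6.53 ± 1.05 and 3.00 ± 2.59 CPM, and edgeR gave 0.91 (SE 0.35) with an adjusted p of 0.183. Sham rat 55 had 8.12 CPM of it, and leaving it out gave 1.19, at which the copy passed (adjusted p = 0.044 in edgeR). For tRNA2133-PheGAA they were 7.84 ± 1.60 and 4.65 ± 2.12 CPM, and edgeR gave 0.61 (SE 0.29) with an adjusted p of 0.27. tRNA443, tRNA6857 and tRNA2013 fell under the filter on low counts, with group means of 0.824 to 6.09 CPM. With tRNA3805 taken out of the sum, the Phe-GAA log2 fold change was 0.77 (SE 0.18, adjusted p = 0.0238 in edgeR), so the sum passed without the copy that passed by itself.

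Marker miRNAs of other cells moved with the same groups. The summed level of microglia and leukocyte miRNAs (6 of 6 measured) was 867.9 to 1332 CPM in sham cortex and 1349 to 2038 CPM in TBI cortex, without overlap, and that of neuronal miRNAs (3 of 3) was 268600 to 393800 and 215000 to 297100 CPM. The former were miR-142-3p, miR-142-5p, miR-223-3p, miR-150-5p, miR-146a-5p and miR-155-5p. The study links miR-146a to reactive astrocytes and miR-155 to activated glia, so their sum is not particular to microglia and leukocytes. Oligodendrocyte miRNAs (3 of 3) summed to 2488 to 3181 CPM in sham and 3182 to 4100 CPM in TBI. Their part in the Phe-GAA difference was not tested. In bulk tissue, fewer cells of a type and less RNA per cell cannot be told apart.

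**Figure D4:**
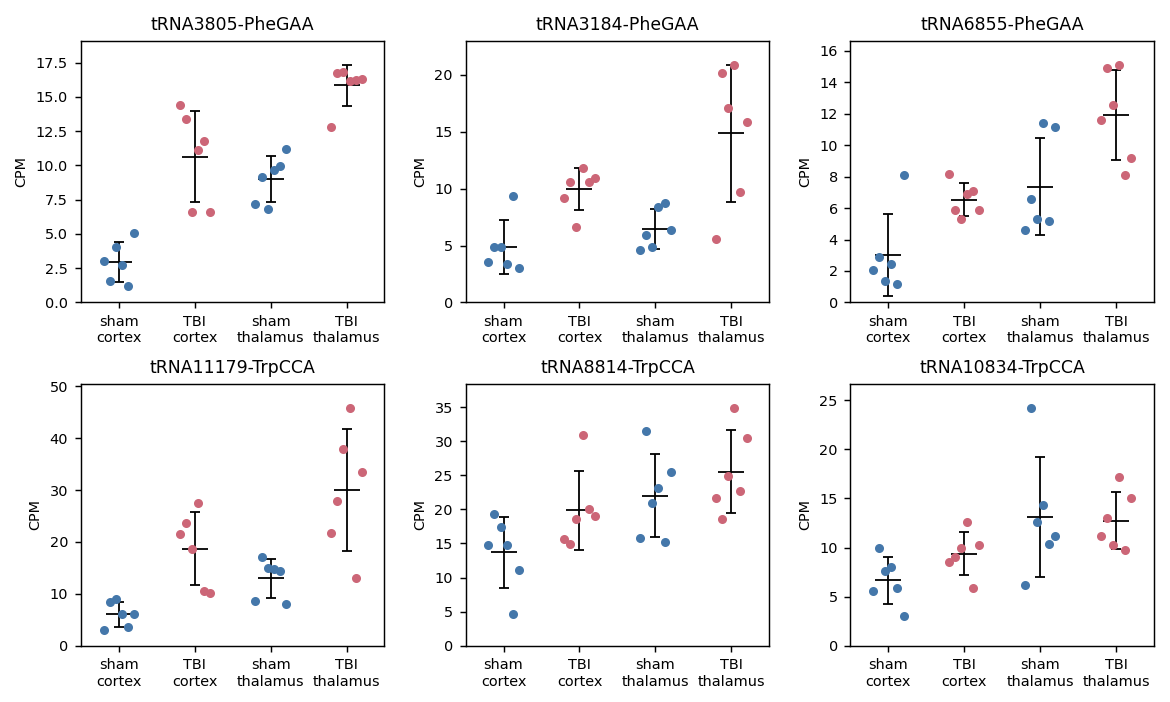
CPM of 3 Phe-GAA copies (top) and 3 Trp-CCA copies (bottom) in every library (y axes, linear from 0), with sham in blue, TBI in red and black bars for the mean and SD of 6 rats. In cortex the TBI points of tRNA3805-PheGAA and tRNA11179-TrpCCA lie above all sham points, and for tRNA8814-TrpCCA and tRNA10834-TrpCCA the groups overlap.

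For Trp-CCA, 1 copy differed in cortex while the sum did not pass. tRNA11179-TrpCCA had 3.06, 8.44, 8.94, 6.16, 3.52 and 6.09 CPM in sham rats 26, 32, 34, 38, 50 and 55. The TBI rats 22, 24, 45, 52, 56 and 63 had 21.6, 23.6, 18.6, 27.5, 10.6 and 10.2 CPM, from 9 to 72 reads. TBI rats 56 and 63 were the nearest to the shams and, in CPM without TMM scaling, still above all 6. Dividing by the TMM factors, 0.8124 for sham rat 32 and 0.9759 for TBI rat 63, brings rat 32 closer to rat 63. In edgeR the log2 fold change came to 1.25 (SE 0.27) with an adjusted p of 0.0207. It passed in 11 of the 12 fits without 1 rat and missed without sham rat 50 (adjusted p = 0.0527 in edgeR). It made up 24.2% ± 6.81 of Trp-CCA reads in TBI cortex and 12.9% ± 3.15 in the shams (SD, n = 6).

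The other Trp-CCA copies were low and overlapped between groups. The nearest to passing was tRNA11017-TrpCCA, at 2.35 to 5.23 CPM in sham (median 4.12) and 4.72 to 11.9 CPM in TBI (median 10.2), with 5 of 6 TBI rats above every sham, and edgeR gave 0.77 on the log2 scale (SE 0.30) with an adjusted p of 0.188. tRNA8814-TrpCCA, the most abundant, had 4.69 to 19.3 CPM in sham (median 14.8) and 15.0 to 31.0 CPM in TBI (median 18.8), and edgeR gave 0.14 on the log2 scale (SE 0.28) with an adjusted p of 0.857. The log2 fold changes of tRNA10834, tRNA2459 and tRNA3892 were 0.07, -0.19 and -0.24 (adjusted p between 0.813 and 0.925 in edgeR), and the latter pair turned positive, at 0.17 and 0.12, when counts were scaled by library size only. The Trp-CCA sum was at 24.6 to 64.6 CPM in sham (median 47.2) and 59.0 to 117.0 CPM in TBI (median 70.8). The sum differed by 0.48 on the log2 scale (SE 0.24, adjusted p = 0.244 in edgeR), and by 0.27 without tRNA11179 (adjusted p = 0.512 in edgeR).

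Tyr-GTA and His-GTG, the abundant anticodons, showed no passing copy in cortex. The Tyr-GTA sum was at 556.9 to 2035 CPM in sham (median 880.1) and 800.3 to 1362 CPM in TBI (median 1070), and the sham rats ranged more widely than the TBI rats, with sham rat 34 above all others. The fitted difference of the sum was -0.10 (SE 0.29, adjusted p = 0.889 in edgeR), but 0.08 with library size scaling and 0.12 without rat 34. Of its copies, tRNA2056 had a log2 fold change of -0.35, tRNA876 of -0.31 and tRNA1605 of -0.24, while tRNA7599 had 0.14 (adjusted p between 0.415 and 0.817 in edgeR). With library size scaling tRNA1605 was at 0.025, and with limma on the CPM table tRNA876 was at 0.17.

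The shares of the abundant Tyr-GTA copies overlapped between groups. The share of tRNA7599 in Tyr-GTA reads was 27.6% ± 2.33 in TBI cortex and 22.8% ± 4.68 in sham cortex, and that of tRNA2056 was 27.4% ± 2.61 and 31.5% ± 4.80 (SD, n = 6). The ratio of tRNA7599 to tRNA876 was 1.05 to 1.42 in TBI cortex and 0.744 to 1.74 in sham cortex, so the groups overlapped. The difference between copies was not tested.

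The His-GTG sum was at 1319 to 3266 CPM in sham cortex (median 2085) and 1620 to 2890 CPM in TBI cortex (median 2679). The sum differed by 0.01 on the log2 scale (SE 0.20, adjusted p = 0.992 in edgeR), and the 12 copies singly were between -0.15 and -0.03 (adjusted p between 0.756 and 0.949 in edgeR). The sum was at 0.19 with library size scaling and at -0.03 with DESeq2. The median of all cortical features moved from -0.00 to 0.30 with library size scaling, so these shifts are best read against it.

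The same question in the ipsilateral thalamus gave no passing member. The thalamus table held CPM and was tested with limma on log2(CPM + 1), where 0 of 30 members passed, against 2.19% of 640 features, and 5 members had an unadjusted p under 0.05, against 7.97% of all features. On this scale the change of low features is understated. The median log2 fold change of the members was 0.61, against 0.06 over all features and 0.24 over the other 236 tRNA features, of which 12 passed as higher and 0 as lower. Of the members 23 were above 0, and 12 of those were the His-GTG copies, whose shares did not differ detectably between libraries. Among the 4 sums 0 passed, against 0.952% of 420 rows, and 1 had an unadjusted p under 0.05, against 5.95%.

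Phe-GAA in thalamus was higher in TBI rats without passing. Of its 4 copies in the table, tRNA2133, tRNA3184 and tRNA3805 reached 10 CPM in at least 2 TBI libraries but in fewer than 2 sham libraries, so their presence in the table already favoured a higher TBI value. The sum over the 4 copies in the table was 20.0, 28.2, 21.0, 37.1, 28.4 and 35.1 CPM in sham rats 26, 32, 34, 38, 50 and 55, and 38.1, 65.8, 57.3, 64.1, 43.9 and 48.8 CPM in TBI rats 22, 24, 45, 52, 56 and 63. The groups did not overlap, as in 1.43% of the rows of the summed table, but TBI rat 22 lay just above sham rat 38. In limma the difference was 0.89 on the log2 scale (SE 0.23) with an adjusted p of 0.0956, and the adjusted p ran from 0.0637 to 0.31 in limma over the 12 fits without 1 rat. The copies tRNA3184, tRNA2133, tRNA3805 and tRNA6855 differed by 1.00, 0.83, 0.76 and 0.67 on the log2 scale (adjusted p between 0.0894 and 0.473 in limma). tRNA3805-PheGAA had 6.84 to 11.2 CPM in sham (median 9.43) and 12.8 to 16.8 CPM in TBI (median 16.3), without overlap, as for 2.5% of all features. Its share in the reads of the 4 copies was 30.7% ± 4.80 in TBI thalamus and 32.4% ± 3.46 in sham thalamus (SD, n = 6). In thalamus the TBI share was thus not higher, but the cortical shares were of 7 copies, so the regions are not compared. tRNA3184 passed only in the fit without TBI rat 22, with a log2 fold change of 1.23 (adjusted p = 0.0223 in limma). The microglia and leukocyte miRNAs summed to 884.2 to 1645 CPM in sham thalamus and 1455 to 2913 CPM in TBI thalamus, and the neuronal miRNAs to 180600 to 231000 and 126700 to 209400 CPM. Of the former, the study itself reported miR-146a-5p and miR-155-5p as higher in the TBI thalamus of these rats. The oligodendrocyte miRNAs, unlike in cortex, had similar levels, at 10830 to 13790 CPM in sham (median 12700) and 10900 to 14630 CPM in TBI (median 12660). The part of these marker miRNAs was not tested.

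tRNA11179-TrpCCA had 7.98 to 17.0 CPM in sham thalamus (median 14.6) and 13.0 to 45.9 CPM in TBI thalamus (median 30.7), where 5 of 6 TBI rats were above every sham and rat 56 was among the shams. On the log2 scale limma put this at 1.09 (SE 0.30) with an adjusted p of 0.0894. It passed without rat 56 (log2 fold change 1.30, adjusted p = 0.0152 in limma) and with TMM factors applied to the CPM (adjusted p = 0.0444 in limma). It made up 28.8% ± 6.87 of Trp-CCA reads in TBI thalamus and 17.4% ± 4.51 in the shams (SD, n = 6). The other Trp-CCA copies named above were between 0.04 and 0.28, of which tRNA10834 and tRNA3892 turned negative with TMM factors, at -0.04 and -0.01. The Trp-CCA sum was at 0.42 (SE 0.25, adjusted p = 0.853 in limma), and at 0.21 without tRNA11179.

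His-GTG in thalamus depended on sham rat 55. The sum was 1638, 3136, 1728, 3909, 1701 and 9096 CPM in sham rats 26, 32, 34, 38, 50 and 55, and 3371, 3487, 3216, 6153, 5968 and 5471 CPM in TBI rats 22, 24, 45, 52, 56 and 63. All TBI rats lay above 4 of the 6 shams, and rat 55 above all TBI rats. The fitted difference was 0.64 (SE 0.38, adjusted p = 0.853 in limma), and 0.97 without rat 55 (adjusted p = 0.127 in limma). The 12 copies were between 0.59 and 0.70. Tyr-GTA was at 1247 to 3323 CPM in sham thalamus and 1295 to 2813 CPM in TBI thalamus, a difference of -0.12 on the log2 scale (SE 0.25, adjusted p = 0.93 in limma) that became 0.04 without rat 55. Its copies tRNA1605, tRNA2056 and tRNA876 were at -0.29, -0.22 and -0.15 and tRNA7599 at 0.12 (adjusted p between 0.789 and 0.898 in limma), and without rat 55 tRNA2056 and tRNA876 were at 0.01 and 0.03.

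The regions were compared over the 595 features in both CPM tables, each library rescaled to 1000000 reads over them, with limma. In sham rats, 12 of 27 members passed and all 12 were higher in thalamus, against 21.8% of all features, or 19.2% as higher. They were the 8 Tyr-GTA copies, 3 Trp-CCA copies (tRNA11179, tRNA11017 and tRNA10834) and tRNA3805-PheGAA, and 0 of 12 His-GTG copies passed. Copies of 1 anticodon may share reads, so here and below such counts are not counts of separate results. The median of all features was itself 0.37 higher in sham thalamus, and with TMM factors over the 24 libraries, which bring that median to -0.00, 2 of 27 members passed, tRNA1605-TyrGTA and tRNA3805-PheGAA, against 10.8% of all features. Leaving out 1 rat gave 7 to 14 passing members, with 7 without rat 38, where 14.6% of all features passed.

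**Figure D5:**
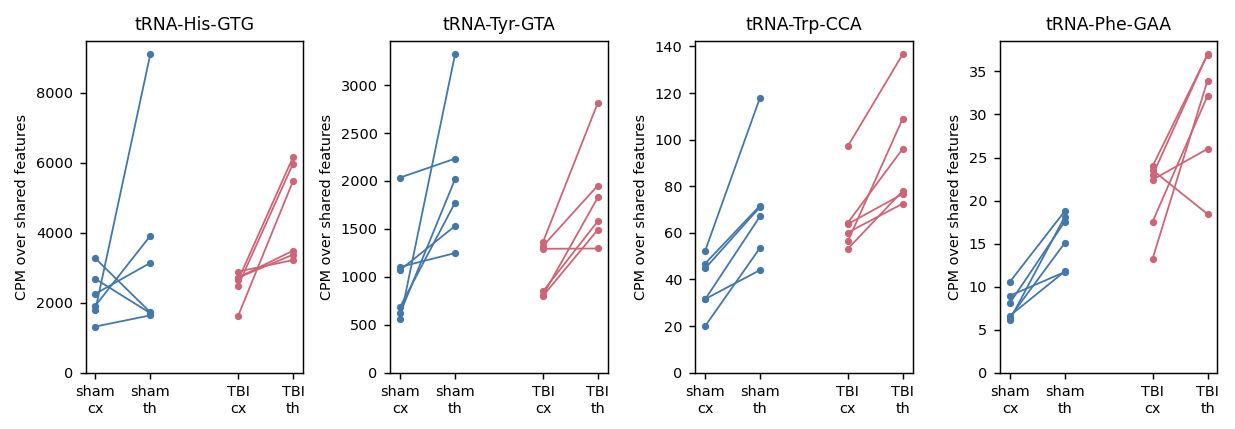
CPM over shared features (y axes, linear from 0) of each anticodon sum in cortex (cx) and thalamus (th), with 1 line per rat, sham in blue and TBI in red. Phe-GAA here sums the 2 copies in both tables. The Tyr-GTA, Trp-CCA and Phe-GAA lines of all 6 sham rats rise from cortex to thalamus, and 2 of the 6 His-GTG lines of sham rats fall.

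Among the sums, Tyr-GTA was at 1013 ± 552 CPM in sham cortex and 2022 ± 727 CPM in sham thalamus (SD, n = 6), higher in thalamus in 6 of 6 rats, a log2 difference of 1.08 (SE 0.28, adjusted p = 0.00443 in limma). This difference fell to 0.78 without rat 55, and it passed in each of the 12 fits without 1 rat. Trp-CCA was at 37.8 ± 12.1 and 70.9 ± 25.5 CPM, higher in 6 of 6 rats, with a log2 difference of 0.89 (SE 0.24, adjusted p = 0.00646 in limma). Phe-GAA, from the 2 copies in both tables, was at 7.81 ± 1.73 and 15.5 ± 3.18 CPM, higher in 6 of 6 rats, with a log2 difference of 0.90 (SE 0.21, adjusted p = 0.00168 in limma). His-GTG was higher in 4 of 6 sham rats, with a log2 difference of 0.43 (SE 0.32, adjusted p = 0.328 in limma) that was 0.05 without rat 55. So 3 of 4 sums passed, against 29.9% of 391 rows, or 25.6% as higher, and with TMM factors over the 24 libraries 1 did, Phe-GAA, against 19.9% of rows. At an unadjusted p of 0.05 also 3 of 4 passed, against 42.5% of rows.

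tRNA3805-PheGAA had the smallest p of the members in this comparison. It was at 2.94 ± 1.47 CPM in sham cortex and 9.01 ± 1.69 CPM in sham thalamus (SD, n = 6), with a log2 difference of 1.42 (SE 0.25, adjusted p = 9.45e-05 in limma). tRNA3184-PheGAA, the other copy in both tables, had a log2 difference of 0.40 (SE 0.28, adjusted p = 0.324 in limma). tRNA1605-TyrGTA had one of 1.43 (SE 0.31, adjusted p = 0.00116 in limma) and tRNA11179-TrpCCA one of 1.02 (SE 0.31, adjusted p = 0.0176 in limma). Among the sham rats, the log2 difference of tRNA1605 was largest in rat 55, at 2.87, and smallest in rat 34, at 0.12.

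In TBI rats, 1 of 27 members passed, tRNA1605-TyrGTA, with a log2 difference of 0.92 (SE 0.31, adjusted p = 0.0482 in limma), against 13.4% of all features, or 9.41% as higher. In 7 of the 12 fits that left out 1 rat, 0 of 27 passed. With the rat as a block, which uses that both libraries of a rat come from the same animal, 10 of 27 passed, 5 Tyr-GTA, 4 His-GTG and 1 Trp-CCA copies, against 19.2% of all features in that fit. Of the sums 0 passed, against 19.4% of rows, or 12.8% as higher, and 3 passed with the block, against 26.9%. The log2 differences were 0.84 for His-GTG (adjusted p = 0.0641 in limma, 0.0356 with the block), 0.76 for Tyr-GTA (0.0516 and 0.0233), 0.54 for Phe-GAA (0.0638 and 0.029) and 0.51 for Trp-CCA (0.146 and 0.055). In cortex, tRNA3805 and tRNA3184 reached 10 CPM in at least 2 TBI libraries but in fewer than 2 sham libraries. So did the Trp-CCA copies tRNA11179, tRNA11017, tRNA2459 and tRNA10834. Their entry favoured a high TBI cortex value, so the TBI differences of Phe-GAA and Trp-CCA are not compared with the sham ones. His-GTG, Tyr-GTA and Trp-CCA were higher in thalamus in 6 of 6 TBI rats and Phe-GAA in 5 of 6. Without rat 55, a sham rat that enters only through the shared spread, 18 of 27 copies passed, against 21.3% of all features, and 2 of 4 sums, against 26.3% of rows.

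Whether the injury difference itself differed between the regions was tested as an interaction. At an adjusted p of 0.05, 0 of 27 members and 0 of 4 sums passed in limma, as did 0% of all features and rows. At an unadjusted p of 0.05, 1 of 27 members and 0 of 4 sums passed, against 3.19% of features and 3.84% of rows. The 1 member was tRNA3805-PheGAA, with an interaction of -0.83 (SE 0.35, unadjusted p = 0.024, adjusted p = 0.999 in limma), a smaller difference in thalamus than in cortex. As said above, this copy, tRNA3184 and most Trp-CCA copies reached 10 CPM in cortex mainly through TBI libraries. That favoured a larger cortical difference and so a negative interaction, also for the Phe-GAA and Trp-CCA sums. In thalamus the same held for tRNA3805, tRNA3184 and tRNA11017, which favoured the opposite sign. For the sums of Phe-GAA, Trp-CCA, Tyr-GTA and His-GTG the interaction was -0.36 (SE 0.29), -0.38 (SE 0.34), -0.31 (SE 0.39) and 0.41 (SE 0.46), with adjusted p between 0.902 and 0.981 in limma. These errors leave room for sizeable differences in either direction, so a pass in cortex and none in thalamus does not show that the regions differed.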

How the data were processed

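Small RNA of 24 libraries was sequenced. The authors kept short inserts by size, mapped reads to rat assembly RGSC 3.4 with miRBase 20 (FastQC per the labels), and used edgeR with TMM scaling. The aligner is not given in the sources used here. The authors deposited whole read counts (the thalamus count table used here has no tRNA features) and CPM tables for both regions. Each CPM value was its read count divided by 1 constant per library, with 100% of values whole within 1e-06 reads.

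Cortical counts were tested with edgeR 4.0.16 (filterByExpr, TMM, robust quasi-likelihood; R 4.3.3) and CPM with limma 3.58.1 (eBayes with trend, log2(CPM + 1), at least 1 CPM in at least 6 libraries), adjusted by Benjamini-Hochberg over all features or all rows of the summed table. The SE in edgeR was the absolute log2 fold change over the square root of F. DESeq2 1.42.0, other scalings, filters, pseudocounts and sums, and leaving out each rat were alternatives. Scripts were tested on simulated data. In the TBI against sham tests, p-values measure the spread between rats. The region and interaction tests without the rat block treated both libraries of a rat as independent, so their p-values mix spread between and within rats.

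Copies named singly were those that passed, the 3 most abundant per anticodon and region, and those with the smallest p or extreme fold change; His-GTG copies were given as a range. The members and lists were chosen with earlier results of these data known. Rat numbers in the sample titles pair the regions (consensus within-rat correlation 0.2583). RefSeq (GRCr8) names 8 Phe-GAA, 8 Tyr-GTA, 7 Trp-CCA and 10 His-GTG genes; the builds differ, so no coordinates or sequences are given.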

Additional observations from a re-analysis of the deposited data

Results flagged for a closer look

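Of 76 groups of 6 libraries, over the sums and the copies with a fold change of their own in the text, 15 held a library far from the other 5, where chance gives about 1 in 20 (3.8). Sums and their copies hold the same reads, so these are not separate events. Among sums, sham rat 55 had 9096 CPM of His-GTG in thalamus (next highest 3909) and 34.49 CPM of Phe-GAA in cortex (next 22.8). TBI rat 63 had 1620 CPM of His-GTG in cortex (next lowest 2486), sham rat 34 had 2035 CPM of Tyr-GTA in cortex (next 1104), TBI rat 52 had 117.0 CPM of Trp-CCA in cortex (next 76.91), and sham rat 32 had 129.1 CPM of Trp-CCA in thalamus (next 78.39).

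Among copies in cortex, sham rat 34 had 104.2 CPM of tRNA1605-TyrGTA, sham rat 50 had 9.39 CPM of tRNA3184-PheGAA, sham rat 55 had 8.115 CPM of tRNA6855-PheGAA and TBI rat 52 had 30.98 CPM of tRNA8814-TrpCCA, each the highest of its group. In thalamus, TBI rat 22 had 126.2 CPM of tRNA1605-TyrGTA and 777.9 CPM of tRNA876-TyrGTA, the highest, and 12.82 CPM of tRNA3805-PheGAA, the lowest. Sham rat 55 had 1229 CPM of tRNA2056-TyrGTA and sham rat 32 had 27.53 CPM of tRNA2459-TrpCCA in thalamus, the highest of their group.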

How the results depend on the processing

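In cortex, the Phe-GAA sum, tRNA3805-PheGAA and tRNA11179-TrpCCA kept their direction and passed under every alternative with all rats. With limma on the cortical CPM table, the Phe-GAA sum held only 2 copies, tRNA3805 and tRNA3184. These copies and tRNA11179 reached 10 CPM in at least 2 TBI libraries but in fewer than 2 sham libraries. Their presence in that table already favoured a higher TBI value, so this alternative adds no support. The number of cortical copies that passed was 2, but 5 with library size only (tRNA3184, tRNA6855 and tRNA11017 added) and 4 with limma on the CPM table; of all features 55 then passed under each, 52 as higher, against 29 with 19 higher. With limma on the deposited CPM 2 cortical sums passed (Phe-GAA and Trp-CCA), and with TMM factors on CPM 1 thalamus copy did. The cortical CPM table held 5 Trp-CCA copies. Of these, tRNA11179, tRNA11017, tRNA2459 and tRNA10834 also reached 10 CPM in at least 2 TBI libraries but in fewer than 2 sham libraries. The choice of copies thus favoured a higher TBI value of the Trp-CCA sum as well. For the regions, TMM over 24 libraries left 2 copies and 1 sum in sham and 0 copies in TBI, log2(CPM + 5) gave 1 sum in TBI, and the replicate block gave 10 copies and 3 sums in TBI. The block changed no other call of a sum, and gave 14 copies in sham.

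Signs turned for small, uncalled differences. The cortical Tyr-GTA sum was at 0.0815 with library size only and 0.19 with limma on the CPM table, and the cortical His-GTG sum at -0.0338 with DESeq2 and -0.0142 without the filter. In cortex, tRNA1605-TyrGTA was at 0.025 and 0.22, tRNA2459-TrpCCA at 0.17 and 0.22 with library size only and limma on the CPM table, tRNA3892-TrpCCA at 0.12 with library size only, and tRNA876-TyrGTA at 0.17 with limma on the CPM table. In thalamus with TMM factors tRNA10834-TrpCCA was at -0.0356 and tRNA3892-TrpCCA at -0.0054. The cause was not tested.

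Leaving out 1 rat at a time gave 1 to 3 cortical copies (1 without sham rat 50), 1 to 1 cortical sums, 0 to 1 thalamus copies (1 without TBI rat 22 or 56) and 0 to 0 thalamus sums. For the regions it gave 7 to 14 copies in sham (7 without rat 38), 0 to 18 copies in TBI (0 without rat 22, 26, 32, 45, 50, 56 or 63, 2 without 52, 5 without 34, 18 without 55), 3 to 3 sums in sham, 0 to 2 sums in TBI (1 without rat 22, 34 or 52, 2 without 55) and 0 interactions. Log2 fold changes that changed sign ranged in cortex from -0.16 to 0.0687 for the His-GTG sum, -0.30 to 0.12 for the Tyr-GTA sum, -0.0585 to 0.29 for tRNA10834, -0.39 to 0.12 for tRNA1605, -0.36 to 0.0565 for tRNA2459, -0.0012 to 0.30 for tRNA7599 and -0.0051 to 0.31 for tRNA8814. In thalamus they ranged from -0.26 to 0.036 for the Tyr-GTA sum, -0.14 to 0.23 for tRNA10834, -0.38 to 0.0131 for tRNA2056, -0.17 to 0.37 for tRNA3892 and -0.32 to 0.0254 for tRNA876. edgeR on reads recovered from the thalamus CPM was not run. Few reads limit the Phe-GAA and Trp-CCA copies, and reads that copies may share limit all single copies.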

Other observations

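The ratio of the His-GTG sum to the Tyr-GTA sum, both abundant and measured within 1 library, was 1.60 to 3.23 in sham cortex (median 2.27), 1.99 to 3.41 in TBI cortex (median 2.05), 0.774 to 2.74 in sham thalamus (median 1.52) and 1.20 to 4.75 in TBI thalamus (median 2.65). The groups overlapped in both regions.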
